A study of Homo sapiens with 24 samples.

Results

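The 37 genes described here encode proteins of G2 and mitosis, from the kinase that starts cell division to the motors and scaffolds that separate the daughter cells. They were taken by gene symbol from a table of 60666 genes, in which each symbol matched 1 Ensembl identifier. All 37 passed the filter on low counts in every fit. Total RNA and RNA from polysomal fractions had been sequenced from A549 and H460, established cell lines of human lung cancer. Cells of each were transfected with siNT, the control siRNA (genotype labelled Wild type), or with siRIC, an siRNA against RICTOR (genotype labelled Rictor knockdown), which gave 8 groups of 3 libraries. RICTOR is the defining subunit of mTOR complex 2, a growth factor-regulated kinase complex. All cells were kept in RPMI medium with fetal bovine serum, and the labels used here give neither a dose nor a time after transfection. Whether the 3 libraries of a group are separate cultures is not in the labels. The p-values therefore measure the spread between these libraries, which may be technical.

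Entry into mitosis is driven by CDK1 bound to cyclin B, which phosphorylates a wide range of proteins. The spindle checkpoint then holds the anaphase-promoting complex, a ubiquitin ligase, inactive until every chromosome is attached, after which the ligase destroys cyclin B and the cell divides. Most of these genes are transcribed together late in the cell cycle, through CHR elements bound by the DREAM and B-MYB-MuvB complexes and through CCAAT boxes bound by NF-Y. Polysomes are mRNAs carrying several ribosomes, so the polysomal fraction holds mRNAs under translation, and a level there relative to total RNA describes how much of an mRNA travels with polysomes compared with other mRNAs. In bulk RNA, fewer cells in G2 and mitosis cannot be told apart from less of these mRNAs per cell.

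The shared promoter elements can be read in the RefSeq sequence of the members (build GRCh38.p14). Promoters of 5 members are shown, of genes whose values recur in the results: the B-type cyclins, the activator of the anaphase-promoting complex, the polo-like kinase and the proliferation marker. Each line runs 5′ to 3′ on the strand of the gene and ends just before the annotated start. Capitals mark CHR elements (TTTGAA or TTTAAA) and CCAAT boxes, searched on both strands, so that ATTGG is a CCAAT box on the other strand.
CCNB1: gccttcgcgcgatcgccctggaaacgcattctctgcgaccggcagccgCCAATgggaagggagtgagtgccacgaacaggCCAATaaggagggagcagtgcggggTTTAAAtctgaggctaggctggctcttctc
CCNB2: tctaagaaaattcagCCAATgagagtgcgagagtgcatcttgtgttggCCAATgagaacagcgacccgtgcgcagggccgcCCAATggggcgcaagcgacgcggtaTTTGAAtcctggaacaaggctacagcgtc
CDC20: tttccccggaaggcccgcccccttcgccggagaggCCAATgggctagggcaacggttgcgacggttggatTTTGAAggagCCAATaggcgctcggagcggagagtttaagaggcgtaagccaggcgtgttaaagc
PLK1: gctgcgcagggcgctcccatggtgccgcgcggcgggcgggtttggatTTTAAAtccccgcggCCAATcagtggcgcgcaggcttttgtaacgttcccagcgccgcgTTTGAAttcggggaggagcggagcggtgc
MKI67: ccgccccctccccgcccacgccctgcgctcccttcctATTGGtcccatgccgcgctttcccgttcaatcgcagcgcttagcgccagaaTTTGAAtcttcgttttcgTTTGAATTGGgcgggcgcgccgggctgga

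The stretches lie at chr5:69167015-69167149 (plus strand) for CCNB1, chr15:59105011-59105145 (plus) for CCNB2, chr1:43358846-43358980 (plus) for CDC20, chr16:23678754-23678888 (plus) for PLK1 and chr10:128126424-128126558 (minus) for MKI67. CCNB1 and CCNB2 each held 1 CHR element downstream of their CCAAT boxes, of which CCNB1 had 2 and CCNB2 had 3. PLK1 and MKI67 each held 2 CHR elements, and in MKI67 the CHR element nearer the start shared 1 base with a CCAAT box. In windows from 250 bases before to 50 bases after the start, 38 promoters of 32 members were found; BIRC5, TPX2, AURKA, UBE2C and TTK were not in the table. A CHR element was present in 31 of the 38 (81.6%), against 23.99% of 35116 promoters of all genes. A CCAAT box was present in 28 (73.7%), against 34.6% of all promoters, and both in 24 (63.2%), against 9.27%. Within 50 bases of the start on either side, 65.8% of the members' promoters held a CHR element, against 7.62% of all promoters. These are matches of letters and say nothing on binding in these cells.

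**Figure D1:**
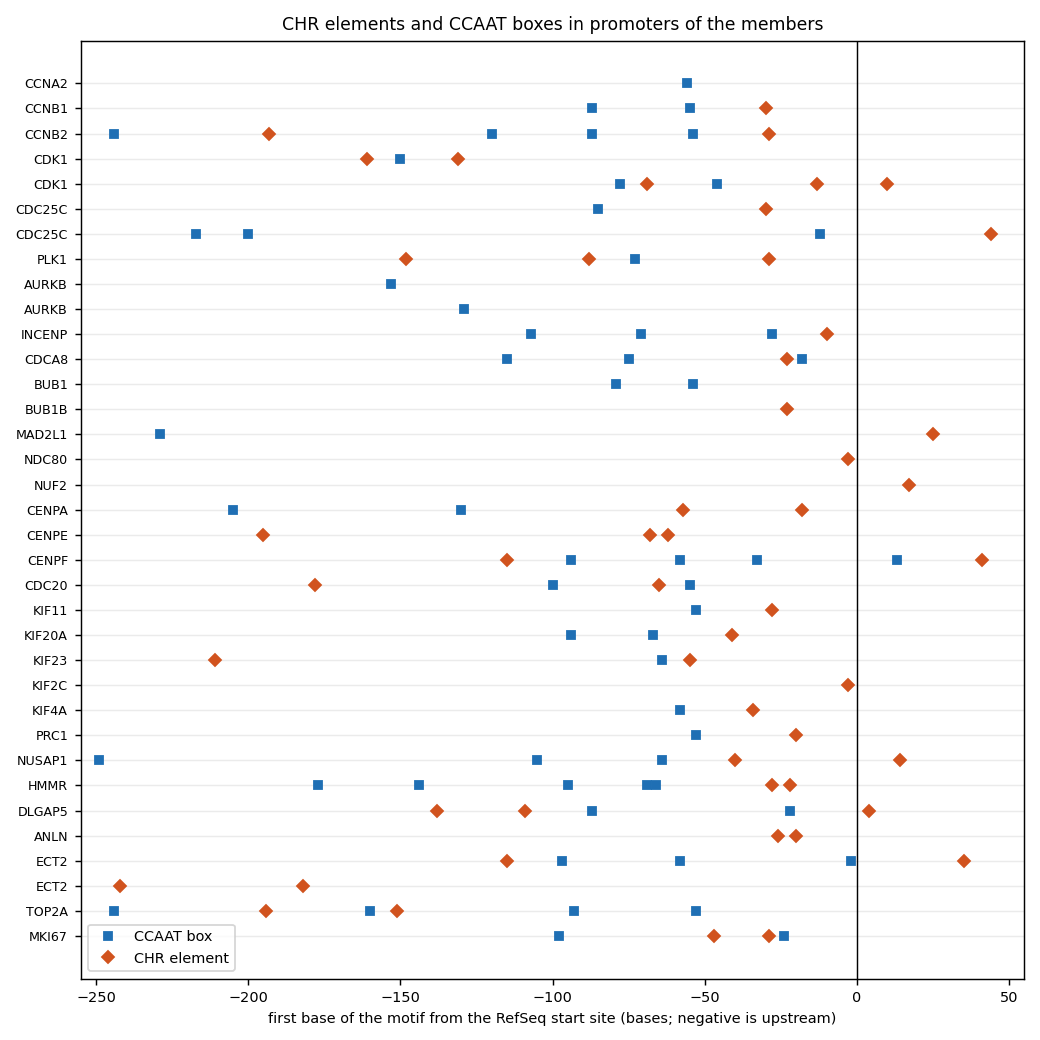
Position of each CHR element (orange diamonds) and CCAAT box (blue squares) in the members' promoters that hold at least 1 of them; the x axis gives the first base of the motif in bases from the RefSeq start site. CHR elements gather within 50 bases of the start, where 25 of 38 promoters have one, and CCAAT boxes lie mostly upstream of them.

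The 24 libraries held 19087204 to 26550160 estimated counts, and the members took 0.286 to 0.557% of them. Levels are given in CPM, counts scaled to a common library size after TMM normalization, which sets libraries but not genes on a common scale, so levels are compared between libraries and not between genes. RICTOR stood at 25.7 to 32.0 CPM in A549 siNT total RNA and at 9.94 to 12.003 CPM in siRIC, and at 18.5 to 19.4 against 5.84 to 7.45 CPM in H460. In the fit of both lines its mean change was -1.46 ± 0.20 log2 (SE) in total RNA (adjusted p = 0.00136) and -1.70 ± 0.20 in polysomal RNA (adjusted p = 0.000132), although in H460 alone neither change passed (adjusted p = 1 and 0.62). Epithelial keratins were abundant in both lines (KRT8 695 to 9594 CPM), CDH1 was at 0 in every H460 library and KRT19 at no more than 1.02 CPM in A549. EPCAM, another epithelial marker, was low in both lines (2.83 to 7.15 CPM in A549 and 0.407 to 1.28 in H460). Among markers of other cells, CD3E, CDH5, SFTPA1 and SFTPB were at 0 in every library, while ABCA3 (17.7 to 57.6 CPM) and CD14 (2.65 to 11.96 CPM) were detected. Summed fibroblast markers reached 4.61 to 10.8 CPM in A549 and 21.9 to 46.1 CPM in H460, and summed endothelial markers 0 to 0.0832 and 2.93 to 7.25 CPM. Of the endothelial markers, KDR alone stood at 2.93 to 7.25 CPM in H460.

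To see whether RICTOR knockdown altered the mitotic programme, siRIC was compared with siNT in each line and fraction. None of the 37 genes passed edgeR's quasi-likelihood test (Benjamini-Hochberg adjusted p under 0.05 over all genes tested) in total or polysomal RNA of either line. In H460 this test did not call RICTOR itself, so the absence of calls there cannot show that the members did not respond. In A549 total RNA the cyclins, CDK1 and CDC25C differed by -0.00 to 0.05 log2 between knockdown and control. The 4 members with the smallest p after siRIC in A549 polysomal RNA were the checkpoint kinase TTK (0.52 log2), the cytokinesis factor ECT2 (0.50), the motor KIF20A (-0.68) and the passenger protein CDCA8 (-0.39), none of which passed. The siNT libraries of a line and fraction serve as the reference for each of these values, and the 4 groups of a line share 1 estimate of the spread.

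In A549 total RNA, no member was called by edgeR or by DESeq2 and none had an unadjusted p under 0.05, beside 0.325% of 15396 genes called by edgeR and 6.81% with an unadjusted p under 0.05. CCNB1, the cyclin B that activates CDK1, stood at 202, 216 and 196 CPM in siNT libraries 1 to 3 and at 212, 211 and 209 in siRIC (log2 difference 0.04 ± 0.13). CDK1 stood at 114, 115 and 108 CPM in siNT and at 114, 119 and 116 in siRIC (0.05 ± 0.18). For both genes the groups overlapped and the siRIC libraries lay within or close to the siNT range. PLK1, the polo-like kinase that promotes mitotic entry and spindle assembly, stood at 147, 179.9 and 161 CPM in siNT and at 158, 164 and 153 in siRIC (-0.04 ± 0.22). MKI67, which encodes the coat of mitotic chromosomes Ki-67, stood at 191, 187 and 297 CPM in siNT and at 229, 197 and 341 in siRIC (0.18 ± 0.25). Library 3 was the highest for MKI67 with either siRNA, and the groups overlapped.

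The 4 members with the smallest p in A549 total RNA were ECT2, CDCA8, NUSAP1 and KIF20A. ECT2, which activates RhoA at the cleavage furrow, stood at 114, 123 and 133 CPM in siNT and at 146, 134.8 and 168 in siRIC (0.27 ± 0.14, adjusted p = 0.836). CDCA8, the borealin subunit of the chromosomal passenger complex, stood at 38.2, 42.9 and 41.2 CPM in siNT and at 32.8, 35.8 and 33.7 in siRIC (-0.26 ± 0.14, adjusted p = 0.881). Both genes were separated without overlap, ECT2 above and CDCA8 below the siNT libraries, by margins that did not pass the test with all groups of the line. In this fraction 31 of 37 members overlapped between siNT and siRIC, as did 82.1% of all genes. With the replicate block and only the groups compared, ECT2 (adjusted p = 0.000646), CDCA8 (adjusted p = 0.0027), NUSAP1, KIF20A and MKI67 passed, beside 18.6% of all genes. NUSAP1, a microtubule-bundling protein of the spindle, stood at 95.3, 93.3 and 90.9 CPM in siNT and at 78.0, 73.7 and 88.0 in siRIC (-0.23 ± 0.17), also without overlap. KIF20A, a kinesin of the central spindle, stood at 61.1, 58.1 and 64.6 CPM in siNT and at 54.2, 47.8 and 60.4 in siRIC (-0.18 ± 0.17), with overlap. The members had a median difference of 0.03 log2 and a range of -0.26 to 0.27, beside a median of 0.01 over all genes tested, and the 95% interval lay within 1 log2 unit of 0 for 37 members and within 0.5 for 26.

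In A549 polysomal RNA, no member was called by edgeR (0.676% of genes were), 7 had an unadjusted p under 0.05 (12.5% of genes did), and DESeq2 called 3 (2.25% of genes). TTK, the kinase that starts checkpoint signalling at unattached kinetochores, stood at 40.2, 40.6 and 46.0 CPM in siNT and at 64.2, 53.1 and 64.8 in siRIC (0.52 ± 0.13, adjusted p = 0.0814). ECT2 stood at 128, 129 and 149 CPM in siNT and at 204, 165 and 207 in siRIC (0.50 ± 0.15, adjusted p = 0.139). All siRIC libraries lay above all siNT libraries for both genes, and the lowest siRIC library was number 2 in each. KIF20A stood at 54.8, 56.0 and 47.2 CPM in siNT and at 26.9, 28.5 and 44.2 in siRIC (-0.68 ± 0.17, adjusted p = 0.0850). CDCA8 stood at 54.4, 73.7 and 59.5 CPM in siNT and at 39.7, 51.1 and 53.3 in siRIC (-0.39 ± 0.14, adjusted p = 0.258). Here the siRIC libraries lay below all siNT libraries, with siRIC library 3 the closest to them for both genes.

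The other members with an unadjusted p under 0.05 in A549 polysomal RNA were CDK1, CENPE and NUSAP1. CDK1 stood at 268, 272 and 281 CPM in siNT and at 498, 302 and 303 in siRIC (0.43 ± 0.18, adjusted p = 0.318), so that siRIC library 1 carried most of the difference although the groups did not overlap. CENPE, the kinetochore kinesin that moves chromosomes to the spindle equator, stood at 19.8, 17.7 and 22.4 CPM in siNT and at 27.1, 19.7 and 40.1 in siRIC (0.53 ± 0.23, adjusted p = 0.361), and NUSAP1 differed by -0.39 ± 0.17 (adjusted p = 0.357). The groups of these last genes overlapped. With the replicate number as a block, 4 members passed in A549 polysomal RNA, beside 3.51% of all genes: TTK (adjusted p = 0.0209), ECT2 (adjusted p = 0.0241) and CENPE (adjusted p = 0.0425) higher, and KIF20A (adjusted p = 0.0166) lower after siRIC. The DESeq2 calls were TTK (0.53, adjusted p = 0.00529), ECT2 (0.51, adjusted p = 0.0166) and KIF20A (-0.66, adjusted p = 0.0127). Without siRIC library 1, edgeR called TTK (0.47, adjusted p = 0.0384) and NUSAP1 (-0.64, adjusted p = 0.0141), and without siRIC library 3 it called 1 member, KIF20A.

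Of the other kinases in A549 polysomal RNA, AURKA did not pass (-0.17 ± 0.13, adjusted p = 0.612). Its highest siRIC library (191.17 CPM) lay only just below its lowest siNT library (191.19 CPM). The regulators named next overlapped between siNT and siRIC. CCNB1 stood at 433, 489 and 391 CPM in siNT and at 419, 395 and 366 in siRIC (-0.16 ± 0.13). PLK1 stood at 213, 315 and 196 CPM in siNT and at 147, 312 and 289.9 in siRIC (0.04 ± 0.22). MKI67 stood at 93.9, 95.4 and 109 CPM in siNT and at 76.7, 77.4 and 149 in siRIC (0.01 ± 0.25). For PLK1 and MKI67 the siRIC libraries spread over a wider range than the siNT libraries. Over the 37 members the median difference was 0.01 log2, beside 0.02 for all genes.

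**Figure D2:**
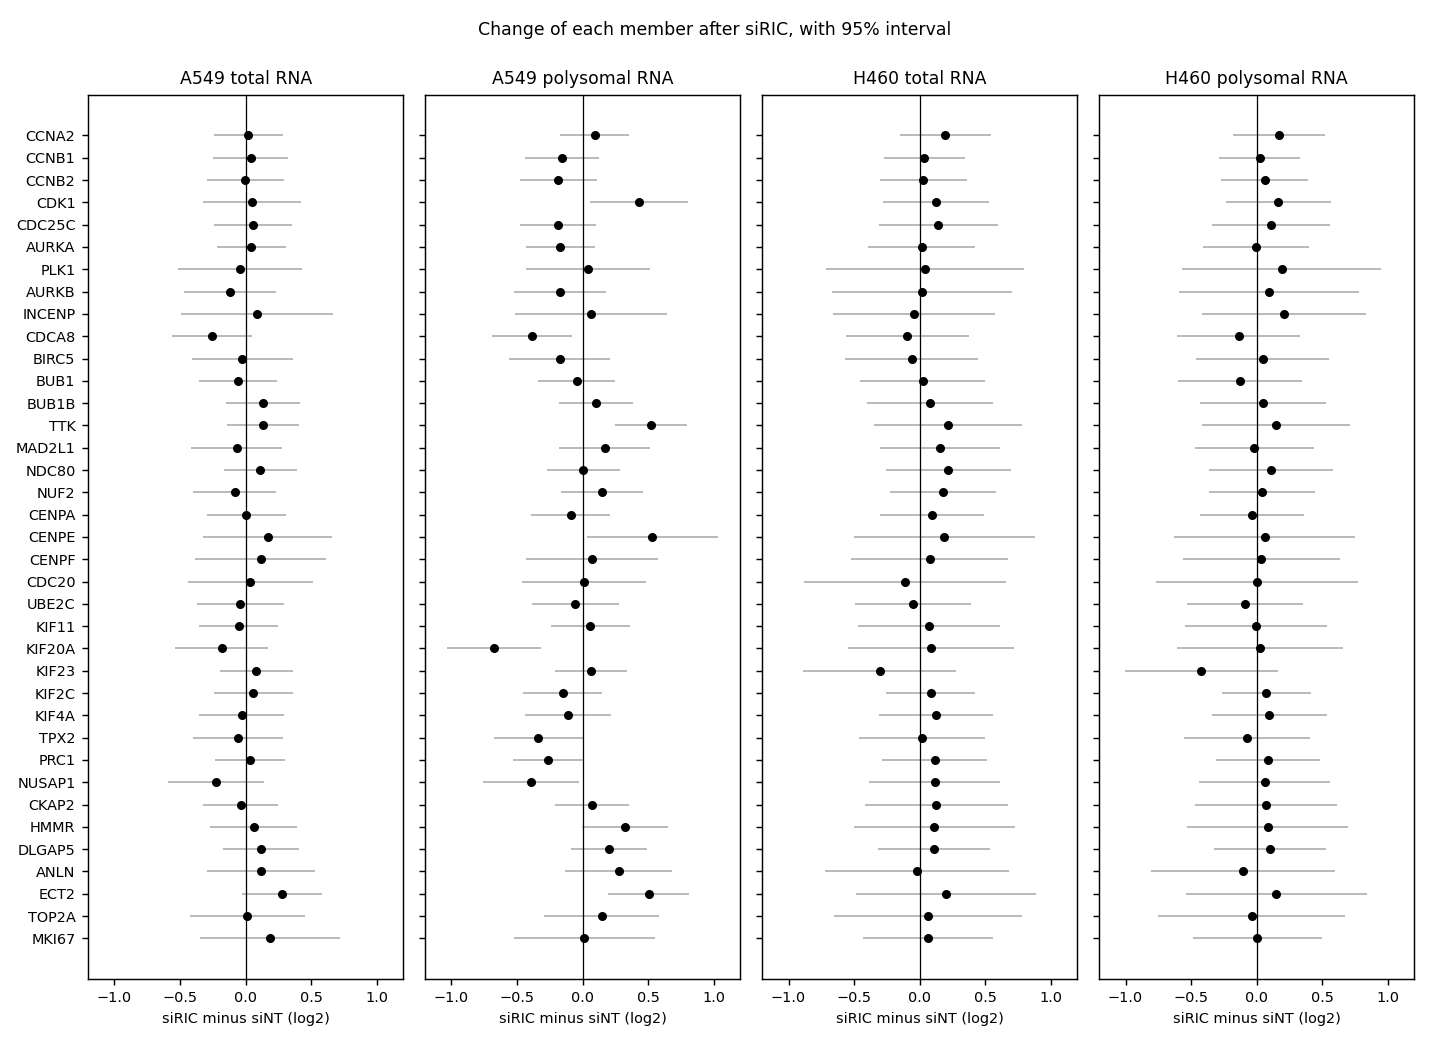
Difference of each member between siRIC and siNT (log2, siRIC minus siNT; points) with its 95% interval (grey bars) in total and polysomal RNA of A549 and H460, with members ordered by role. Differences lie between -0.26 and 0.27 in A549 total RNA and between -0.68 (KIF20A) and 0.53 (CENPE) in A549 polysomal RNA.

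In H460 total RNA, edgeR and DESeq2 called no member, no member had an unadjusted p under 0.05 (1.14% of genes did), and edgeR called 0% of 14586 genes. RICTOR, the target of the siRNA, was among the genes not called by edgeR, although its siRIC libraries lay below all siNT libraries. CCNB1 stood at 155, 154 and 144 CPM in siNT and at 159.5, 166 and 142 in siRIC (0.03 ± 0.14). CDK1 stood at 126, 152 and 126 CPM in siNT and at 142, 162 and 140.1 in siRIC (0.12 ± 0.19). The groups overlapped for both genes, and library 2 was the highest for CDK1 with either siRNA. PLK1 (106, 126 and 103 against 118, 125 and 103 CPM) and MKI67 (232, 319 and 290.4 against 262, 337 and 283 CPM) overlapped as well, with differences of 0.04 ± 0.35 and 0.06 ± 0.23. The smallest p belonged to CCNA2, cyclin A, which stood at 80.8, 81.0 and 81.5 CPM in siNT and at 85.7, 99.0 and 95.1 in siRIC (0.19 ± 0.16). KIF23, a kinesin of the centralspindlin complex in cytokinesis, stood at 50.7, 57.5 and 64.9 CPM in siNT and at 45.6, 47.2 and 47.9 in siRIC (-0.31 ± 0.27). Neither gene's groups overlapped, with CCNA2 above and KIF23 below siNT. NDC80 (0.22 ± 0.22) and NUF2 (0.18 ± 0.19), which together form the microtubule-binding end of the kinetochore, came next. The median of the members was 0.08 log2, beside 0.02 over all genes, and 30 of 37 lay above 0, as did 54.1% of all genes. The siRIC libraries lay wholly above siNT for 6 members and wholly below for 2. The other 29 overlapped, as did 85.0% of all genes.

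In H460 polysomal RNA again no member was called by edgeR or DESeq2, none had an unadjusted p under 0.05 (1.73% of genes did), and 0% of genes, RICTOR included, were called by edgeR. KIF23 had the smallest p and stood at 56.9, 59.2 and 104 CPM in siNT and at 39.6, 47.8 and 76.0 in siRIC (-0.42 ± 0.27, adjusted p = 1). It was lower with siRIC in each of the numbered pairs, while the groups overlapped because library 3 was the highest with either siRNA. CDK1 stood at 224, 262 and 306 CPM in siNT and at 244, 298 and 338 in siRIC (0.16 ± 0.19), and CCNA2 differed by 0.17 ± 0.16. CCNB1 stood at 363, 366 and 372 CPM in siNT and at 383, 371 and 354 in siRIC (0.02 ± 0.14). Both genes overlapped between the groups, with the 3 values of CCNB1 close together in each. PLK1 stood at 127, 185 and 62.6 CPM in siNT and at 152, 185 and 85.6 in siRIC (0.19 ± 0.35). MKI67 stood at 162, 235 and 261 CPM in siNT and at 176, 212 and 269 in siRIC (0.00 ± 0.23), and INCENP, the scaffold of the chromosomal passenger complex, differed by 0.21 ± 0.29. In this fraction 37 of 37 members overlapped between siNT and siRIC, as did 96.98% of all genes. The 95% interval lay within 1 log2 unit of 0 for 36 members and within 0.5 for 9.

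The response was also averaged over the lines and compared between them. For the mean of both lines, edgeR and DESeq2 called no member in total RNA (0.127% of genes called by edgeR) or polysomal RNA (0.133% of genes). At an unadjusted p under 0.05 stood 0 members in total RNA (4.05% of genes) and 3 in polysomal RNA (6.41% of genes). Those 3 were TTK (0.33 ± 0.14), CDK1 (0.29 ± 0.12) and CDCA8 (-0.27 ± 0.13), with adjusted p-values of 0.697, 0.701 and 0.759. The difference in response between the lines was called for no member by edgeR or DESeq2 in total RNA (0% of genes) or polysomal RNA (0.00606% of genes), and no member had an unadjusted p under 0.05 in either (2.31% and 3.5% of genes did). It was widest for KIF20A in polysomal RNA, at 0.71 ± 0.35 for H460 minus A549 (95% interval -0.02 to 1.43). The polysomal-to-total ratio after siRIC, tested as the interaction of siRNA and fraction, was called for no member in A549 or H460 by edgeR (0% of genes in each) or DESeq2. At an unadjusted p under 0.05 stood 1 member in A549 (1.15% of genes) and 0 in H460 (0.61% of genes). TTK was that member, with a change in the ratio of 0.39 ± 0.18 in A549, followed by KIF20A at -0.49 ± 0.24.

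CDKN1A encodes p21, an inhibitor of CDK1 and other cyclin-dependent kinases. In A549 total RNA it stood at 70.1, 81.8 and 68.4 CPM in siNT and at 47.4, 54.5 and 42.8 in siRIC (-0.61 ± 0.18, adjusted p = 0.254). The siRIC libraries lay below all siNT libraries, and with the replicate block the difference passed (adjusted p = 0.0279). In A549 polysomal RNA it differed by -0.39 ± 0.18 (adjusted p = 0.383), and in H460 by -0.29 ± 0.27 in total and -0.13 ± 0.27 in polysomal RNA (adjusted p = 1 in each). FOXM1, the transcription factor that activates many mitotic genes, differed after siRIC by 0.00, -0.13, 0.05 and 0.17 log2 in A549 total, A549 polysomal, H460 total and H460 polysomal RNA. Of 7 further lists of the pathway (other kinetochore, anaphase-promoting complex, cohesin and condensin, spindle, entry and exit, transcription factor and G1/S replication genes), 0 genes were called by edgeR after siRIC in any line or fraction, and at an unadjusted p under 0.05 the lists held 0 to 7 genes each, the 7 being of 41 replication genes in A549 polysomal RNA, where 12.5% of all genes had such a p. DESeq2 called 6 genes of the lists in A549 polysomal RNA, of which 4 were replication genes, beside 2.25% of all genes, and 0 in A549 total RNA or either H460 fraction. For the mean of both lines it called 2 in total RNA (ZWINT and E2F5), among 62 genes in all. In polysomal RNA it called 1 (ZWINT), among 98 genes in all.

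Polysomal RNA was then compared with total RNA, which showed how the members are distributed between translated and bulk mRNA. Of the 37 members, 19 passed as higher in polysomal than in total RNA in A549 siNT cells and 13 in H460 siNT cells, beside 18.3% and 12.5% of all genes. Among them CDK1, its cyclin CCNB1, its activating phosphatase CDC25C, the checkpoint target CDC20, the kinetochore subunit NUF2 and the kinase AURKB stood higher by 0.90 to 1.31 log2 in siNT cells of both lines. The difference was above 0, passed or not, for 28 members in A549 siNT and 31 in H460 siNT, beside 47.1% and 48.8% of all genes. MKI67, the chromosome coat protein, and CENPF, a kinetochore protein, stood lower there in A549, and INCENP did in H460 siNT cells. The lines ranked the members similarly in siNT cells, with a Spearman correlation of 0.858 across members. It was 0.855 over 10834 genes averaging 5 CPM or more, so this is not particular to the members.

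In A549 siNT cells 19 members passed as higher in polysomal RNA and 2 as lower, beside 18.3% and 18.8% of all genes tested. The median of the members was 0.49 log2, beside -0.04 for all genes. With siRIC 19 members were higher and 4 lower (21.2% and 21% of all genes), with a median of 0.35 beside -0.03. In H460 siNT cells 13 were higher and 1 lower (12.5% and 10.5% of all genes), with a median of 0.39 beside -0.02. In H460 siRIC cells 11 were higher and 0 lower (13.1% and 10.6% of all genes), with a median of 0.35 beside -0.02. In H460 siRIC, 18 members had an unadjusted p under 0.05 (36.8% of genes did), and DESeq2 called 16 higher and 0 lower (17.4% and 11.7% of genes). With the replicate number as a block, 17 members were higher and 1 lower in H460 siRIC cells, beside 18.7% and 17.9% of all genes. Every fit that left out 1 library kept 17 of the 21 calls in A549 siNT, 15 of the 23 in A549 siRIC, 6 of the 14 in H460 siNT and 5 of the 11 in H460 siRIC. The calls lost in at least 1 such fit were those of BUB1, CENPF, UBE2C and NUSAP1 in A549 siNT, and of AURKA, PLK1, BUB1, CENPA, CENPF, UBE2C, CDCA8 and CKAP2 in A549 siRIC. In H460 siNT they were those of CDC20, AURKB, BUB1, MAD2L1, KIF2C, UBE2C, INCENP and DLGAP5, and in H460 siRIC those of CDC20, AURKB, NDC80, KIF2C, UBE2C and DLGAP5. The H460 counts rested on few libraries. Leaving out siNT total library 1, 2 or 3 or siNT polysomal library 2 brought the H460 siNT count to 6, 7, 6 or 9 members. Leaving out siRIC total library 1, 2 or 3 or siRIC polysomal library 2 brought the H460 siRIC count to 7, 7, 6 or 6, and leaving out siNT polysomal library 3 brought it to 17. The shares of all genes called in these fits are not given here.

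All 5 genes that start mitosis were higher in A549 polysomal RNA with either siRNA, beside 18.3% (siNT) and 21.2% (siRIC) of all genes. In H460 4 of 5 were higher with either siRNA, beside 12.5% and 13.1% of all genes. The remaining gene, CCNA2, differed by 0.46 ± 0.16 in H460 siNT and 0.44 ± 0.16 in H460 siRIC (adjusted p = 0.0560 and 0.0671), and both differences passed by DESeq2, under RLE scaling and in the blocked fit (adjusted p = 0.0171 and 0.0211). In A549 siNT cells CDK1 stood at 268, 272 and 281 CPM in polysomal and at 114, 115 and 108 in total RNA (1.23 ± 0.18, adjusted p = 0.000107). CCNB1 stood at 433, 489 and 391 against 202, 216 and 196 CPM (1.04 ± 0.14, adjusted p = 4.41e-05). CDC25C, the phosphatase that removes the inhibitory phosphates of CDK1, stood at 29.3, 29.9 and 30.0 against 14.3, 14.2 and 15.5 CPM (0.96 ± 0.14, adjusted p = 0.000101). Every polysomal library of these genes lay well above every total library, while 44.96% of all genes overlapped between the fractions. In H460 siNT cells CCNB1 stood at 363, 366 and 372 against 155, 154 and 144 CPM (1.31 ± 0.14, adjusted p = 0.000194). CDK1 stood at 224, 262 and 306 against 126, 152 and 126 CPM (1.00 ± 0.19, adjusted p = 0.00276), and CDC25C at 23.5, 17.9 and 27.8 against 10.3, 11.2 and 12.3 CPM (1.07 ± 0.21, adjusted p = 0.00383). There was no overlap for any of the 3 genes in H460 either, where 62.5% of all genes overlapped. CCNB2, the second B-type cyclin, stood at 97.4, 108 and 113 against 62.4, 62.8 and 59.9 CPM in H460 siNT (0.82 ± 0.15, adjusted p = 0.0029), and CCNA2 at 104, 121 and 117 against 64.1, 71.0 and 71.8 CPM in A549 siNT (0.67 ± 0.13, adjusted p = 0.000753). With siRIC the difference of CDK1 was 1.61 ± 0.18 in A549 and 1.04 ± 0.19 in H460, and that of CCNB1 was 0.85 ± 0.14 and 1.30 ± 0.14. CCNB1, CCNB2, CDK1, CDC25C and NUF2 were called in every group when any 1 library of their line was left out.

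**Figure D3:**
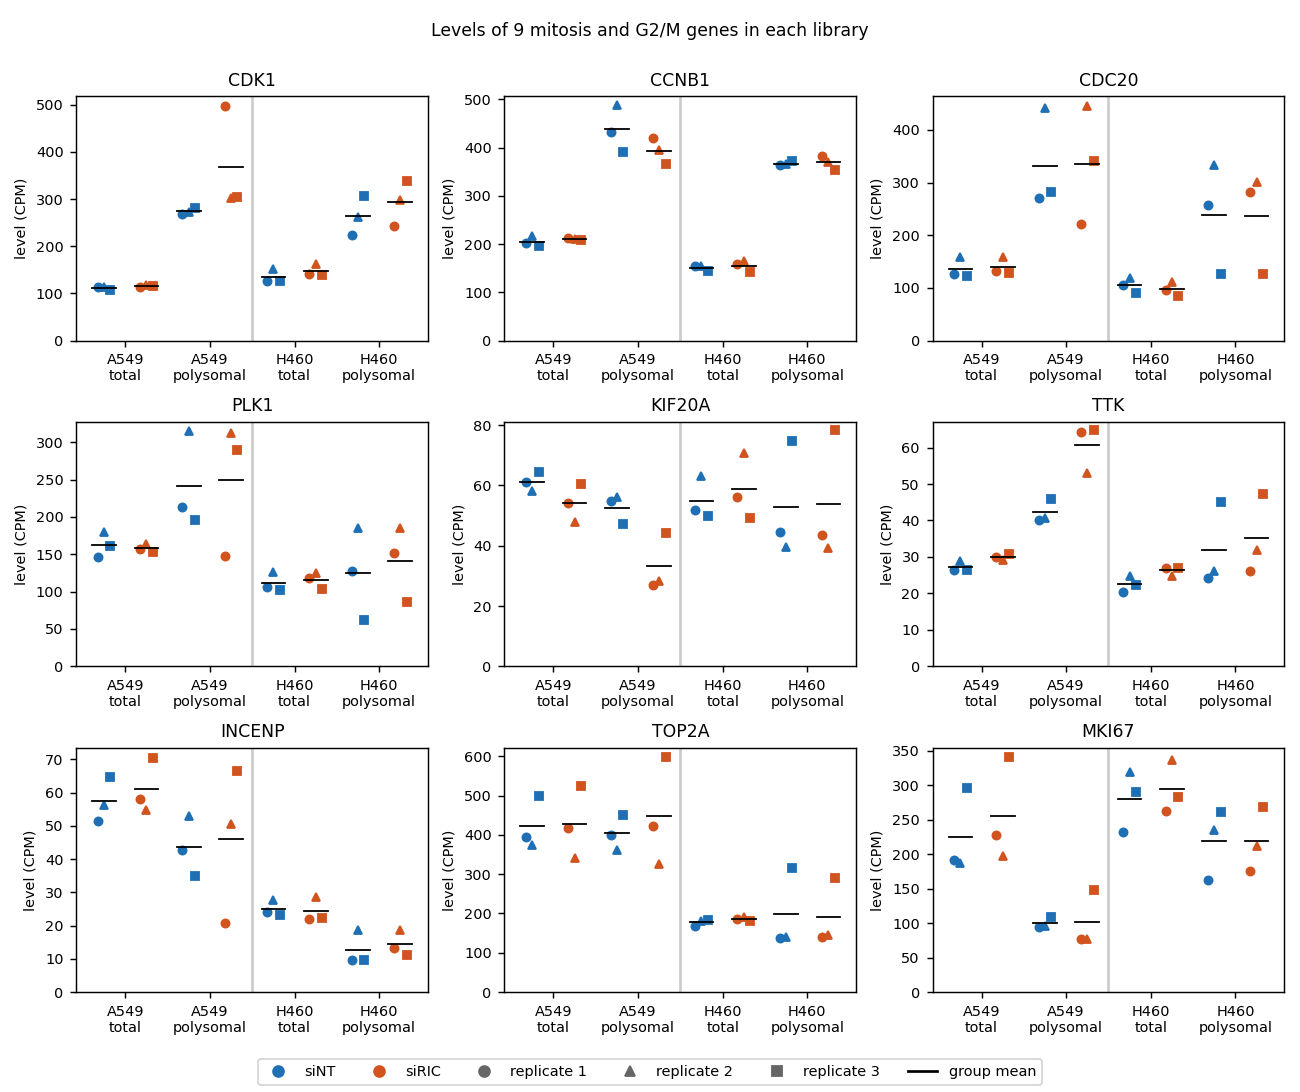
Level of 9 members in each library (y axis, CPM on a linear scale from 0) in total and polysomal RNA of A549 and H460, with siNT in blue, siRIC in orange, a marker shape for each replicate number and a bar at the group mean. CDK1 and CCNB1 stand higher in polysomal RNA in both lines and MKI67 lower in A549, while library 3 of H460 polysomal RNA stands apart for KIF20A, TTK, TOP2A, CDC20 and PLK1.

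The mitotic kinases came next. AURKA, the spindle pole kinase, was higher in A549 polysomal RNA with siNT (0.54 ± 0.13, adjusted p = 0.00321) and differed by 0.55 ± 0.19 in H460 siNT (adjusted p = 0.0503, 0.0173 with the replicate block and 0.00823 by DESeq2). PLK1 stood at 213, 315 and 196 CPM in polysomal against 147, 179.9 and 161 in total RNA of A549 siNT cells (0.51 ± 0.22, adjusted p = 0.083), a difference that passed under the replicate block (adjusted p = 0.028) and, without it, in A549 siRIC cells (0.60 ± 0.23, adjusted p = 0.0429), the latter in 4 of 12 fits that left out 1 library (adjusted p up to 0.187). In H460 siNT cells PLK1 stood at 127, 185 and 62.6 against 106, 126 and 103 CPM (0.20 ± 0.35), with polysomal libraries 1 and 2 above the total libraries and library 3 below them.

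The chromosomal passenger complex, which corrects wrong attachments of chromosomes to the spindle, was split between its subunits. AURKB, its kinase, stood at 199, 243 and 176 CPM in polysomal against 106, 114 and 97.0 in total RNA of A549 siNT cells (0.90 ± 0.17, adjusted p = 0.000646). In H460 siNT cells it stood at 169, 196 and 82.3 against 78.3, 72.3 and 67.5 CPM (1.07 ± 0.32, adjusted p = 0.0307). Polysomal libraries lay above total libraries in both lines, and in H460 the gap was narrow for library 3. INCENP stood at 9.76, 18.7 and 9.49 CPM in polysomal against 24.1, 27.6 and 23.1 in total RNA of H460 siNT cells (-0.94 ± 0.29, adjusted p = 0.0339), without overlap. In H460 siRIC cells INCENP differed by -0.69 ± 0.29 (adjusted p = 0.0999, and 0.00757 with the replicate block), and in A549 siNT cells by -0.46 ± 0.27 (adjusted p = 0.205). The call of INCENP in H460 siNT held in 5 of 12 fits that left out 1 library and that of AURKB in 7 of 12, with adjusted p up to 0.108 and 0.109. CDCA8 was higher in A549 siNT (0.56 ± 0.14, adjusted p = 0.00615) and differed by 0.11 ± 0.22 in H460 siNT, while BIRC5, survivin, differed by -0.12 ± 0.18 and -0.22 ± 0.23.

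Of 9 checkpoint and kinetochore genes, 5 were higher and 1 was lower in polysomal RNA of A549 siNT cells, beside 18.3% and 18.8% of all genes. The count of 1 lower does not exceed the share of all genes. In H460 siNT 4 of the 9 were higher, beside 12.5% of all genes. NUF2 stood at 63.1, 56.6 and 58.4 against 28.4, 28.5 and 28.2 CPM in A549 siNT (1.01 ± 0.15, adjusted p = 0.000122) and at 55.2, 55.8 and 80.3 against 33.3, 32.8 and 35.5 CPM in H460 siNT (0.95 ± 0.19, adjusted p = 0.00377). Its partner NDC80 stood at 16.4, 16.5 and 16.6 against 10.2, 10.4 and 10.3 CPM in A549 siNT (0.62 ± 0.13, adjusted p = 0.00165) and at 31.8, 23.6 and 39.7 against 16.5, 14.6 and 18.6 CPM in H460 siNT (0.97 ± 0.22, adjusted p = 0.00847). Both subunits were separated without overlap in both lines. TTK stood at 64.2, 53.1 and 64.8 against 30.0, 29.1 and 30.7 CPM in A549 siRIC (0.96 ± 0.13, adjusted p = 3.51e-05), and MAD2L1, the checkpoint protein that binds CDC20, at 124, 94.4 and 86.2 against 48.3, 59.3 and 48.8 CPM (0.91 ± 0.17, adjusted p = 0.000421). BUB1, a checkpoint kinase, was higher in A549 siNT (0.43 ± 0.14, adjusted p = 0.0236) and H460 siNT (0.72 ± 0.22, adjusted p = 0.0332), calls that held in 8 and 6 of 12 fits that left out 1 library. Its relative BUB1B differed by 0.22 ± 0.13 in A549 siNT and by 0.54 ± 0.22 in H460 siNT (adjusted p = 0.102, 0.0354 with the replicate block and 0.0453 by DESeq2). CENPF, a large kinetochore protein, stood at 73.0, 63.1 and 78.8 CPM in polysomal against 118, 103 and 153 in total RNA of A549 siNT cells (-0.86 ± 0.24, adjusted p = 0.00957), without overlap; without total library 3 the adjusted p was 0.0534. The kinesin CENPE differed by -0.56 ± 0.23 there (adjusted p = 0.0693, and 0.00202 with the replicate block), and the centromeric histone CENPA was lower in A549 siRIC (-0.38 ± 0.14, adjusted p = 0.0433), a call that held in 3 of 12 fits that left out 1 library. CENPA differed by similar amounts in H460 siRIC (-0.37 ± 0.18, adjusted p = 0.158), A549 siNT (-0.28 ± 0.14) and H460 siNT (-0.24 ± 0.18).

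Both partners of the anaphase-promoting complex passed as higher in each of the 4 groups, beside 12.5 to 21.2% of all genes. Some of these calls were lost when 1 library was left out. CDC20, its mitotic activator, stood at 271, 441 and 282 CPM in polysomal against 127, 159 and 123 in total RNA of A549 siNT cells (1.23 ± 0.23, adjusted p = 0.000678). In H460 siNT cells CDC20 stood at 257, 333 and 126 against 105, 118 and 90.8 CPM (1.22 ± 0.36, adjusted p = 0.0288). Polysomal libraries were above total libraries in each line, but library 3 in H460 barely so, and the call in H460 siNT held in 7 of 12 fits that left out 1 library (adjusted p up to 0.109). UBE2C, the ubiquitin-conjugating enzyme of the complex, was higher by 0.49 ± 0.16 in A549 siNT (adjusted p = 0.0207) and by 0.64 ± 0.20 in H460 siNT (adjusted p = 0.039), calls that held in 9 and 4 of 12 such fits. In H460 siRIC the call of CDC20 held in 8 of 12 and that of UBE2C in 4 of 12, and the latter was lost without the filter on low counts and with only the groups compared.

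Of 5 motors, KIF2C, which depolymerises microtubules at centromeres, was higher in siNT cells, by 0.54 ± 0.14 in A549 (adjusted p = 0.00772) and 0.59 ± 0.16 in H460 (adjusted p = 0.0171), a count of 1 of 5 that is near the share of all genes. The H460 call held in 8 of 12 fits that left out 1 library and was lost without the filter on low counts and with only the groups compared. In H460 siNT it stood at 58.1, 69.2 and 61.8 against 44.3, 43.4 and 40.6 CPM, without overlap. KIF20A stood at 26.9, 28.5 and 44.2 CPM in polysomal against 54.2, 47.8 and 60.4 in total RNA of A549 siRIC cells (-0.77 ± 0.17, adjusted p = 0.0018), and differed by -0.27 ± 0.17 in A549 siNT. KIF11, the motor that separates the spindle poles, differed by -0.00 ± 0.14 in A549 siNT and 0.28 ± 0.25 in H460 siNT, and KIF23 passed in no group when all groups of its line were fitted together. KIF4A, the chromokinesin of the central spindle, differed by 0.51 ± 0.20 in H460 siNT and 0.49 ± 0.20 in H460 siRIC (adjusted p = 0.0842 and 0.0999). Both passed by DESeq2, without the polysomal libraries of number 3, and in the blocked fit (adjusted p = 0.0357 and 0.0431). Among the 8 spindle and cytokinesis proteins, DLGAP5, a spindle stabiliser, was higher in all 4 groups; in H460 siNT it stood at 65.9, 77.1 and 91.2 against 41.5, 52.3 and 47.7 CPM (0.76 ± 0.20, adjusted p = 0.016). HMMR, a spindle assembly factor, was higher in A549 siNT (0.57 ± 0.16) and in A549 siRIC, where it stood at 105, 84.4 and 125 against 54.7, 50.8 and 63.7 CPM (0.84 ± 0.16, adjusted p = 0.000509). NUSAP1 was higher in A549 siNT (0.58 ± 0.17, adjusted p = 0.0152) and CKAP2, a microtubule stabiliser, in A549 siRIC (0.35 ± 0.13, adjusted p = 0.0468). The CKAP2 call held in 4 of 12 fits that left out 1 library (adjusted p up to 0.164) and was lost without the filter on low counts and with only the groups compared. The spindle activator TPX2 and the furrow scaffold ANLN differed by 0.16 ± 0.16 and 0.03 ± 0.19 in A549 siNT. The bundling protein PRC1 differed by 0.33 ± 0.13 in A549 siNT (adjusted p = 0.0518) and passed there with the replicate block (adjusted p = 0.0241), by DESeq2, under RLE scaling and with only the groups compared. ECT2 differed by 0.30 ± 0.14 in A549 siRIC (adjusted p = 0.105) and passed there with the block (adjusted p = 0.0355) and by DESeq2.

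Of the chromosome structure genes, MKI67 stood at 93.9, 95.4 and 109 CPM in polysomal against 191, 187 and 297 in total RNA of A549 siNT cells (-1.24 ± 0.26, adjusted p = 0.00148). With siRIC it stood at 76.7, 77.4 and 149 against 229, 197 and 341 CPM (-1.41 ± 0.26, adjusted p = 0.000435). All polysomal libraries lay below all total libraries in A549, with library 3 the highest in each group. In H460 siNT cells MKI67 stood at 162, 235 and 261 against 232, 319 and 290.4 CPM (-0.32 ± 0.23, adjusted p = 0.349), and the groups overlapped. TOP2A, the topoisomerase that untangles chromosomes, differed by -0.12 ± 0.21 in A549 siNT and by 0.19 ± 0.33 in H460 siNT.

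Polysomal-to-total ratios were also taken within each pair of libraries with the same number. They come from the same libraries as the tests above and are not separate evidence. The ratio lay above 1 (log2 above 0) in all 12 pairs for 16 members: CCNA2, CCNB1, CCNB2, CDK1, CDC20, CDC25C, AURKA, AURKB, BUB1, BUB1B, MAD2L1, NDC80, NUF2, KIF2C, UBE2C and DLGAP5. It lay below 1 in all 12 pairs for INCENP and MKI67. In A549 alone, 25 members lay above and 5 (CENPE, CENPF, KIF20A, INCENP and MKI67) below in all 6 pairs, and in H460 17 lay above and 2 below. These counts were not made over all genes, so they cannot show whether the members differ from other genes. The median log2 ratio of the members was 0.51, 0.53 and 0.42 in the 3 siNT pairs of A549 and 0.40, 0.34 and 0.36 in the siRIC pairs. In H460 it was 0.24, 0.12 and 0.71 with siNT and 0.13, 0.23 and 0.67 with siRIC, so that pair 3 stood above the others with either siRNA.

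**Figure D4:**
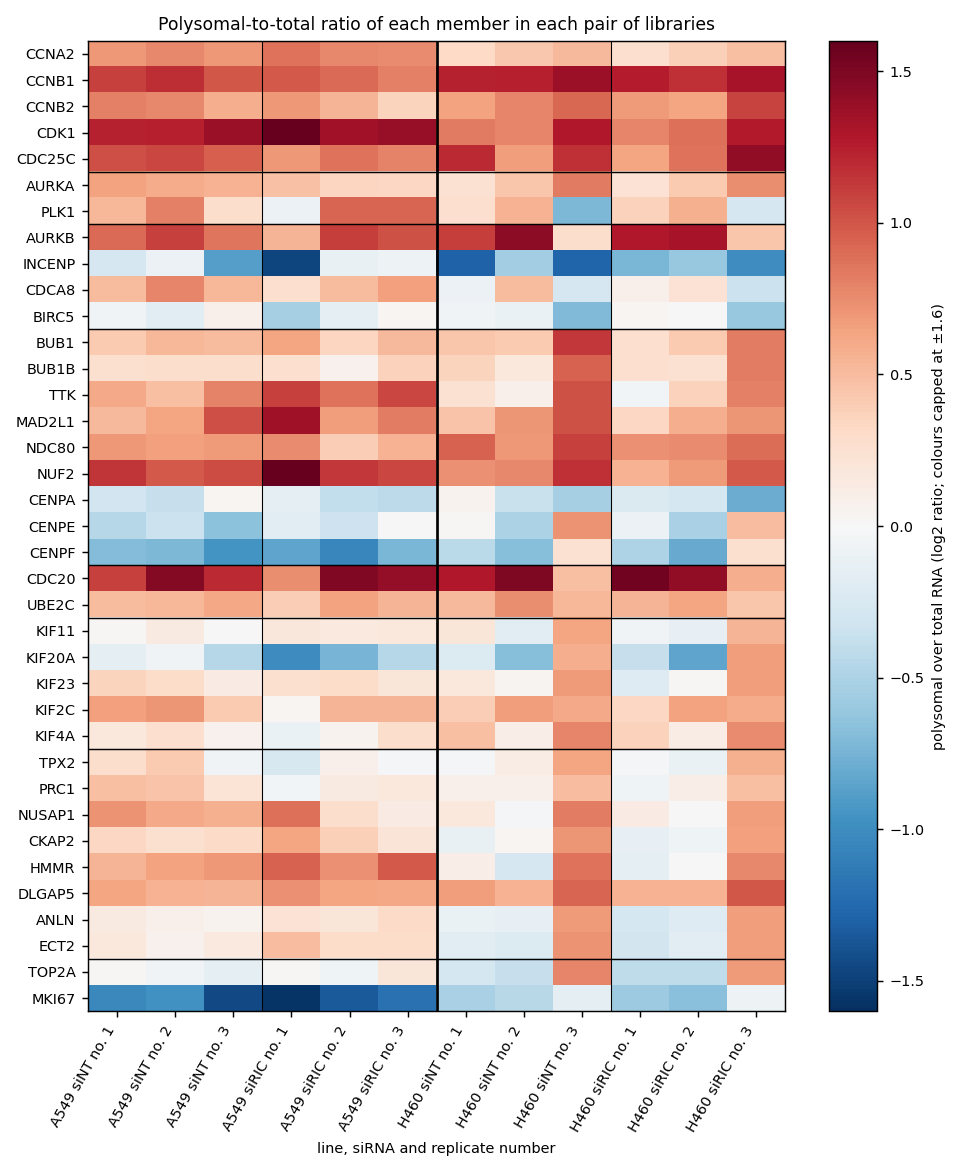
Log2 ratio of polysomal to total RNA of each member (rows, ordered by role) in each of the 12 pairs of libraries with the same line, siRNA and replicate number (columns); red is above 0, blue below, and colours are capped at 1.6 in either direction. The entry genes, NUF2 and CDC20 are red throughout, INCENP and MKI67 blue throughout, and both H460 pairs of number 3 are redder for most spindle genes and paler or blue for PLK1, AURKB and CDC20.

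Libraries of number 3 stood apart in H460 polysomal RNA. Each library was set against the mean log2 level of the other 2 libraries of its group. By this measure siNT polysomal library 3 had 18 members more than 0.5 log2 above and 5 more than 0.5 below, from PLK1 at -1.29 to TOP2A at 1.19. The siRIC polysomal library 3 had 13 above and 4 below, from CDC20 at -1.21 to TOP2A at 1.04. The deviations of the 2 libraries pointed the same way for 36 of 37 members, and their correlation across members was 0.989. These values were not taken over all genes. Over all genes, chi-square per degree of freedom of library 3 against libraries 1 and 2 was 140 and 184 with siNT, and 126 and 154 with siRIC. Between libraries 1 and 2 it was 52.6 and 53.6, so library 3 stood apart beyond the members. Library 1 of A549 siRIC polysomal RNA also deviated, with INCENP at -1.47 and CDK1 at 0.72. RICTOR was likewise the highest in number 3 among the H460 siNT polysomal libraries (11.8, 10.3 and 24.3 CPM). What set these libraries apart was not tested. Without both H460 polysomal libraries of number 3, 17 members passed as higher and 3 as lower in H460 siNT, beside 24.5% and 22.7% of all genes, and 17 and 3 in siRIC, beside 25.9% and 24.5%. PLK1 then passed as higher (0.56, adjusted p = 0.0169, and 0.63, adjusted p = 0.00808), CENPF as lower (-0.52, adjusted p = 0.00471, and -0.55, adjusted p = 0.00305), and TOP2A turned to -0.28 (adjusted p = 0.0275) and -0.30 (adjusted p = 0.0188). CDC20 then reached 1.56 log2 in siNT and 1.66 in siRIC.

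The lines were compared next, for the ratio and for the level in total RNA. Between siNT cells of A549 and H460 the mean log2 ratios of the 37 members had a Pearson correlation of 0.844 and a Spearman correlation of 0.858, and 0.867 and 0.878 when H460 pair 3 was left out. Over 10834 genes averaging 5 CPM or more both correlations were 0.855. The points share libraries, and the correlations are descriptions. The difference in ratio between the lines was called for no member by edgeR or DESeq2 (0% of genes by edgeR), and 1 member had an unadjusted p under 0.05 (4.99% of genes did). That member was MKI67, whose ratio was 0.95 ± 0.37 log2 higher in H460 (95% interval 0.18 to 1.71, adjusted p = 0.971).

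**Figure D5:**
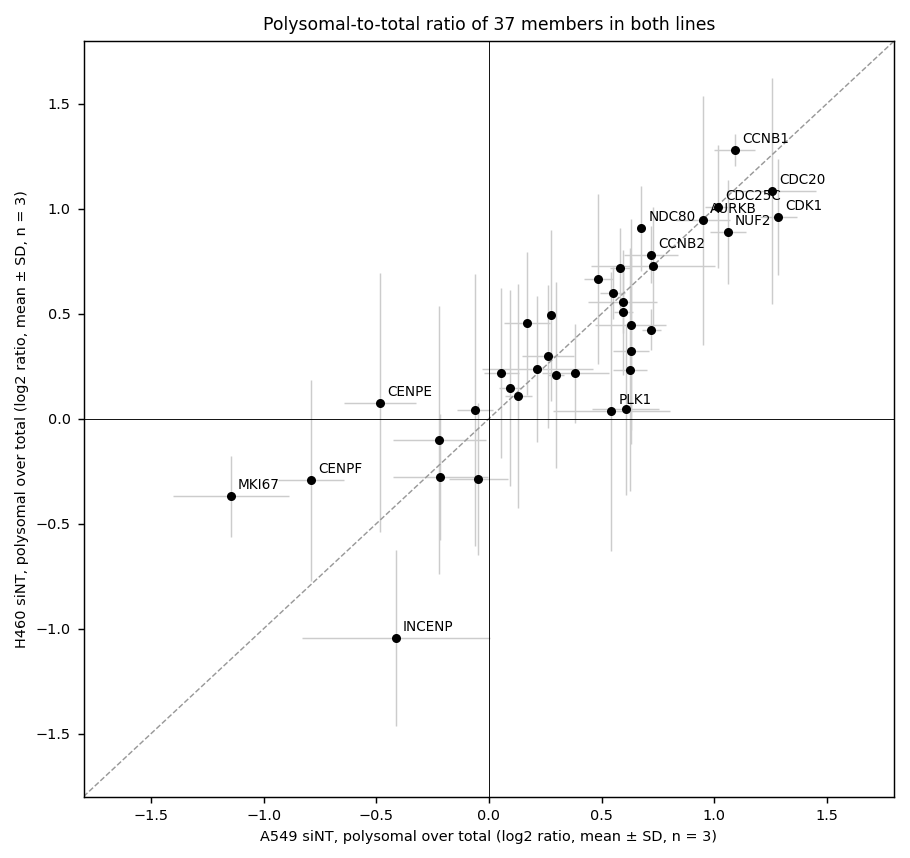
Mean log2 ratio of polysomal to total RNA of each member in siNT cells of A549 (x axis) and H460 (y axis), with bars for the SD over 3 pairs of libraries and a dashed line of equality. CCNB1, CDC20 and CDK1 lie at the top right, MKI67, CENPF and INCENP at the lower left, and the correlation across members is 0.844.

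In total RNA of siNT cells, 11 of the 37 members passed as lower in H460 than in A549 and 1 as higher, beside 28.9% and 26.2% of all genes. The share of members called lower was thus close to that of all genes. The median of the members was -0.34 log2, beside -0.02 for all genes. TOP2A stood at 168, 181 and 183 CPM in H460 and at 396, 375 and 499 in A549 (-1.34 ± 0.29, adjusted p = 0.000514). INCENP stood at 24.1, 27.6 and 23.1 against 51.4, 56.3 and 64.5 CPM (-1.28 ± 0.30, adjusted p = 0.00107). CENPA stood at 22.1, 20.7 and 27.2 against 41.8, 42.5 and 34.3 CPM (-0.84 ± 0.16, adjusted p = 0.000127). The lines did not overlap for any of these genes, and of all genes only 27.1% overlapped. KIF23 stood at 50.7, 57.5 and 64.9 against 86.3, 98.9 and 99.3 CPM (-0.80 ± 0.21, adjusted p = 0.00249), and CCNB2 at 62.4, 62.8 and 59.9 against 93.3, 98.1 and 95.8 CPM (-0.71 ± 0.13, adjusted p = 9.22e-05). CCNB1 (155, 154 and 144 against 202, 216 and 196 CPM, -0.51 ± 0.12) and PRC1 (102, 124 and 107 against 147, 149 and 153 CPM, -0.51 ± 0.14) were lower as well, again without overlap. NDC80 was the member that stood higher in H460, at 16.5, 14.6 and 18.6 against 10.2, 10.4 and 10.3 CPM (0.61 ± 0.18, adjusted p = 0.00672). CDK1 (0.19 ± 0.17) and MKI67 (0.23 ± 0.26) did not pass. Of the 12 calls, 9 held in all 24 fits that left out 1 library; CDC25C, BUB1 and UBE2C did not. Without the filter on low counts 7 of the 12 calls remained, and CCNB1 (adjusted p = 0.105), PRC1 (adjusted p = 0.11), CDC25C, BUB1 and UBE2C were lost. With the replicate block 22 members were called, 4 higher and 18 lower in H460, beside 30.6% and 32.5% of all genes. Line and growth state of the cultures cannot be told apart here.

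The other genes of the pathway were distributed between the fractions in several ways, and their counts stand beside 18.3% of all genes called higher and 18.8% lower in A549 siNT, and 12.5% and 10.5% in H460 siNT. FOXM1 stood at 61.0, 62.9 and 46.0 CPM in polysomal against 136, 147 and 115 in total RNA of A549 siNT cells (-1.28 ± 0.19, adjusted p = 0.000102). In H460 siNT it stood at 31.9, 39.1 and 20.2 against 79.7, 99.0 and 79.6 CPM (-1.47 ± 0.25, adjusted p = 0.00157), and it was lower with siRIC in A549 (-1.41 ± 0.19) and H460 (-1.35 ± 0.25) too. All polysomal libraries of FOXM1 lay below all total libraries, the opposite side from the cyclins and CDK1. TFDP1, the dimer partner of E2F factors, was lower in A549 siNT (-0.93 ± 0.16) and H460 siNT (-0.96 ± 0.21), and of 17 transcription factors of mitotic genes 3 were higher and 6 lower in A549 siNT, and 0 higher and 3 lower in H460 siNT. Other kinetochore and checkpoint genes were higher in 9 and lower in 2 of 25 in A549 siNT and in 6 and 1 in H460 siNT, led by SPC25 (0.86 ± 0.14 and 1.24 ± 0.15), a subunit of the complex of NDC80 and NUF2. Of 17 genes of the anaphase-promoting complex, 8 and 3 were higher and 0 lower, among them ANAPC10 (1.04 ± 0.21 and 0.88 ± 0.19). Of 22 cohesin and condensin genes, 5 and 3 were higher, near the share of all genes, and 0 lower, with the condensin II subunit NCAPH2 at 1.35 ± 0.15 and 1.55 ± 0.28. Other spindle genes were higher in 7 and 4 and lower in 2 and 2 of 24, the latter with the citron kinase CIT at -1.19 ± 0.21 and -1.16 ± 0.17. Of 18 other entry and exit genes, 4 and 4 were higher and 2 and 1 lower. Of 41 replication and G1/S genes, 19 and 13 were higher and 0 lower, with medians of 0.42 and 0.43 log2 beside 0.49 and 0.39 for the mitotic members.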

How the data were processed

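Total RNA and polysomal RNA were extracted with TriPure and made into stranded total RNA libraries after ribosomal depletion, per the labels' protocols; the labels also name the molecule polyA RNA, which was not settled. Reads were converted with bcl2fastq 2.20 and the genome build was GRCh38, per the submitters' processing notes; the sources used here do not name the annotation. Estimated counts per gene made with salmon were deposited by the authors, per the deposited table's name, and were rounded to whole numbers. edgeR 4.0.16 (R 4.3.3) was run with its filter on low counts, TMM scaling and the quasi-likelihood test over the 12 libraries of a line (8 residual degrees of freedom) or all 24 (16), with Benjamini-Hochberg adjustment over all genes tested and a threshold of 0.05. Standard errors were derived from the F statistic. DESeq2 1.42.0, RLE scaling, no filter, only the groups compared, the replicate block and each library left out were alternatives; leaving out both H460 polysomal libraries of number 3 was added after seeing the data. Within-pair ratios used a pseudocount of 0.1 CPM. Scripts were tested on simulated counts.

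The labels give the replicate number as a batch. Same-numbered libraries of a line were therefore taken as paired in the within-pair ratios and in the blocked fits. The reported tests used the group only, without a block, and take no account of this pairing. Deviations from the group means correlated with a median of 0.296 in A549 (-0.00661 to 0.589) and 0.353 in H460 (0.204 to 0.899) for the same number, against -0.128 and -0.146 for different numbers. No 2 libraries of a group agreed within sampling noise (chi-square per degree of freedom 8.82 to 184). Values in every library are given for the members called, at most 8 with the smallest p, or else for the 4 with the smallest p, and for CCNB1, CDK1, PLK1 and MKI67 after siRIC. The members and lists were chosen with earlier results of these data known. Promoter sequences are from RefSeq, GRCh38.p14.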

Additional observations from a re-analysis of the deposited data

How the results depend on the processing

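The absence of calls after siRIC held in A549 total RNA, both H460 fractions, the line means, the line differences and the ratio changes when any 1 library was left out (0 to 0 members), and under RLE scaling and DESeq2. In both H460 fractions the reported fit called 0 genes in all, RICTOR included. The absence of calls there cannot show that the members did not respond. In A549 polysomal RNA 0 to 2 members were called when 1 library was left out, 3 by DESeq2, 1 without the filter and 4 with the replicate block. The last 3 settings called 346, 413 and 540 genes in all, beside 104 in the reported fit. With the replicate block and only the groups compared, 5 members were called in A549 total RNA among 2794 genes called in all (18.6% of genes). ECT2 and MKI67 were higher, and CDCA8, NUSAP1 and KIF20A lower. In A549 polysomal RNA this setting called 1 member among 336 genes called in all (KIF20A, -0.70, adjusted p = 0.0111). In H460 it called 1 among 517 genes called in total RNA (KIF23, -0.32, adjusted p = 0.0237). In H460 polysomal RNA it called 1 among 100 genes called (KIF23, -0.42, adjusted p = 0.0468). Polysomal against total RNA gave 19 to 25 members in A549 siNT and 17 to 23 in A549 siRIC when 1 library was left out. It gave 6 to 16 in H460 siNT and 6 to 17 in H460 siRIC. In H460 siRIC it gave 18 with the block and 20 without both polysomal libraries of number 3. In all, 5350 and 7509 genes were called there, beside 3456 in the reported fit. The 12 members that differed between the lines in total RNA became 22 with the block and 24 with only the groups compared, where 10403 and 10833 genes were called. Without both H460 polysomal libraries of number 3 they became 20, among 10576 genes called, and the reported fit called 9102 genes. When 1 library was left out they became 10 to 18, and counts over all genes are not given for such fits. Without both H460 polysomal libraries of number 3, TOP2A reversed from 0.19 to -0.28 in H460 siNT and from 0.09 to -0.30 in H460 siRIC. The cause was not tested. The block changed no other count of calls by over 1.5 times. RLE scaling moved the median of all genes by less than 0.1 log2. With 3 libraries a group, the 95% interval of the siRIC difference lay within 0.5 log2 of 0 for 26, 18, 8 and 9 members in A549 total, A549 polysomal, H460 total and H460 polysomal RNA.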
